A study of Mus musculus with 16 samples.

Results

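The heterogeneous nuclear ribonucleoproteins (hnRNPs) were followed here through 10 of their genes in the livers of mice under different diets and feeding states. The 10 genes, Hnrnpa1, Hnrnpa2b1, Hnrnpa3, Hnrnpc, Hnrnpd, Hnrnpf, Hnrnph1, Hnrnpk, Hnrnpm and Hnrnpu, were found by symbol among the 46078 genes of the count table, and all 10 were among the 15075 genes with enough counts to be tested. RNA-seq of polyadenylated RNA was made from whole livers of 16 male mice, 1 library per liver, of a strain the sample labels spell C56B6/J and the study's methods C57BL6/J. The labels name no transgene or gene deletion for any group. The mice were 8 weeks old when the diets began and stayed for 16 weeks on a control diet (CD) or on a high-fat diet (HFD) with 60% of its calories from fat, a diet that makes mice obese. Livers were collected either from mice fed ad libitum or after a 16 h fast, which gave the 4 groups CD fed, CD fast, HFD fed and HFD fast, with 4 libraries each. The questions the design allows are whether fasting changed the level of a gene on each diet, whether HFD changed it in each feeding state, and whether the response to fasting differed between diets.

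The hnRNPs are abundant nuclear proteins that coat RNA as it is transcribed. Each binds short sequence elements through RNA-recognition motifs, KH domains or other domains, and through them represses or promotes splice sites, marks RNA for export or localisation, and sets its stability. They often oppose the SR proteins, another class of splicing factors, in the choice of alternative exons, and many of them regulate the splicing of their own transcripts. In the adult liver they belong to the general splicing machinery of hepatocytes and of the other liver cells alike. Poly(A) counts per gene measure the transcript of each hnRNP and give neither its protein nor its isoforms.

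Library totals ranged from 41364448 to 57583153 counts, and a member had between 1043 and 18481 counts in a library, far above the 3 counts taken as the limit of detection (0.0536 to 0.0767 CPM, counts scaled to a common library size, depending on the library). Hepatocyte transcripts dominated every library (the summed level of 6 hepatocyte markers was 67200 to 132600 CPM), whereas of the 4 pancreatic markers Cpa1 and Pnlip were at most 0.0708 CPM and Ctrb1 at most 1.5 CPM. The other one, the elastase gene Cela1, had 6.04 to 23.2 CPM and was called lower with fasting on both diets, by a log2 fold change of -1.15 in CD and -1.05 in HFD. At an adjusted p under 0.05, fasting in CD lowered 11.5% and raised 13.7% of all genes tested. It lowered 13 and raised 1 of 38 tested markers of cell types, of proliferation and of nuclear RNA. Among those that fell were all 4 proliferation markers, whose summed level was 7.77 to 14.4 CPM in CD fed and 1.85 to 3.05 CPM in CD fast livers. Of the same 38, fasting in HFD lowered 4 and raised 2 (4.07% and 4.78% of all genes tested), and HFD in fed mice lowered 1 (4.22%). HFD in fasted mice raised 5 and lowered 1 (3.05% and 4.65%). The adipocyte marker Cfd was among those that rose with fasting in HFD. The summed level of 3 adipocyte markers was 2.08 to 70.2 CPM in HFD fast livers and at most 6.95 CPM in the other groups. The long noncoding RNA Neat1, a nuclear transcript, rose with fasting on both diets, by 1.76 on the log2 scale in CD and 2.09 in HFD. In whole liver, fewer cells of a type and less RNA per cell cannot be told apart, and the part of these marker changes in the results on hnRNPs was not tested.

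Levels differed among the members over a wider range than any member covered across the libraries, where the widest range was 2.20-fold, for Hnrnpa1. To allow for gene length, levels were divided by the length of all annotated exons of a gene together. This length can exceed that of the transcripts present, so the order and percentiles below depend in part on the annotation. Per kb of exon, Hnrnpa2b1 was the most abundant at a mean of 40.8 CPM per kb over the 16 libraries. It was followed by Hnrnpk (33.5), Hnrnpf (31.8) and Hnrnpa3 (28.5). Hnrnpa1 (17.2), Hnrnpc (16.3), Hnrnph1 (11.95) and Hnrnpm (9.91) formed the middle, and Hnrnpd (4.44) and Hnrnpu (2.98 CPM per kb) came last in every library. Hnrnpa2b1 stood above Hnrnpk in 16 of 16 libraries. The next places were not separated, since Hnrnpk exceeded Hnrnpf in 12 of 16 libraries and Hnrnpf exceeded Hnrnpa3 in 12 of 16. Hnrnpa1 and Hnrnpc changed places with the group: Hnrnpa1 had 14.7 ± 1.59 CPM per kb in CD fed livers against 18.1 ± 1.04 for Hnrnpc, and 22.6 ± 3.37 against 15.6 ± 1.96 in CD fast livers (SD, n = 4). From Hnrnpc downwards each member exceeded the next in 16 of 16 libraries. Against all genes tested, Hnrnpa2b1 lay at the 93.4th percentile of this scale and Hnrnpu at the 55.2nd.

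**Figure D1:**
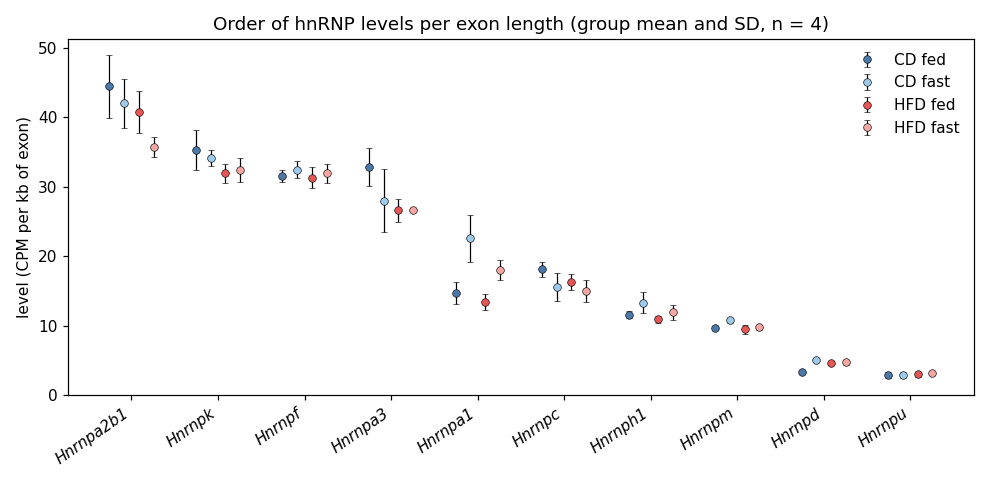
Mean level of each hnRNP gene in CPM per kb of exon (vertical axis, linear, from 0) by group, with bars of 1 SD over 4 libraries. Genes are in the order of their mean over all 16 libraries; Hnrnpa2b1 is highest at 40.8 and Hnrnpu lowest at 2.98 CPM per kb, and Hnrnpa1 lies below Hnrnpc in CD fed livers and above it in CD fast livers.

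The genes are dispersed over the genome. Coordinates below are of the GRCm38 build and the GENCODE M21 annotation, and every member is a protein-coding gene counted over its exons. Hnrnpa1 (ENSMUSG00000046434) spans positions 103240432 to 103246692 of the plus strand of chromosome 15, with 3153 exonic bases. Hnrnpd (ENSMUSG00000000568) lies at 99955935 to 99978938 on the minus strand of chromosome 5, with 7354 exonic bases, and Hnrnpm (ENSMUSG00000059208) at 33646233 to 33686860 on the minus strand of chromosome 17, with 7956. The annotation lists a median of 12 transcripts for a member against 4 for the genes tested. Transcripts with a retained intron are annotated for 7 of 10 members (70% against 52.1% of tested genes) and transcripts subject to nonsense-mediated decay for 5 of 10 (50% against 24.8%). Gene counts add these forms together.

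Several members resemble other loci closely enough for reads to be shared. Of the 100-base words in the annotated transcripts, 49.4% were found in other genes for Hnrnpf, 25.9% for Hnrnpa1, 25.6% for Hnrnpa3, 12.4% for Hnrnpm and 11.9% for Hnrnpk, and 0% for Hnrnpa2b1. For Hnrnpa1 and Hnrnpa3 nearly all of the other genes are processed pseudogenes, while for Hnrnpf they also include long noncoding RNAs such as Gm47882. Some of the genes that share words with these 3 members have no row in the count table, and the others had at most 24.1 counts on average. Gm10052, which holds most of the shared words of Hnrnpa1, had that mean, against 2583 counts per library for Hnrnpa1. How the counting step treated reads that fit several places is not given in the sources used here, so the levels of members that share words are less certain than that of Hnrnpa2b1. For Hnrnpm the shared words belong to March2, an overlapping gene on the same strand with a mean of 2967 counts against 3790 for Hnrnpm, and Hnrnpd overlaps an antisense gene, Gm17092, that had a mean of 5.44 counts.

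Fasting on the control diet raised 3 of the 10 hnRNP genes and lowered none at an adjusted p under 0.05. The 3 were Hnrnpa1, a repressor of splice sites that also binds mRNA in the cytoplasm; Hnrnpd, also called AUF1, which binds AU-rich elements and promotes the decay of mRNA; and Hnrnpm, which binds GU-rich sequence and regulates alternative exons. Hnrnpa1 and Hnrnpd both rose by about 50% (1.54-fold and 1.52-fold) and Hnrnpm by 12.4%. By this rule 25.2% of all genes tested changed with fasting in CD (13.7% rose and 11.5% fell), so 3 of 10 is near the share of the transcriptome as a whole. The median log2 fold change was 0.02 over the 10 members and -0.01 over all genes.

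The promoters of the 3 genes that rose with fasting in CD are printed so that they can be compared, since the genes changed in the same direction. Each line holds the 250 bases before the gene's start in RefSeq, 5′ to 3′ on the gene's own strand, on GRCm38.p6. RefSeq starts can differ from the GENCODE M21 spans given above, and the window of Hnrnpm lies inside its GENCODE span. Capitals mark matches, on either strand, to 5 promoter motifs: the CCAAT box, the GC box (GGGCGG), the TATA box (TATAAA), the cyclic AMP response element (TGACGTCA) and the E-box (CACGTG). Where matches overlap, their letters are capitalised together.
Hnrnpa1, chr15:103240147-103240396, plus strand: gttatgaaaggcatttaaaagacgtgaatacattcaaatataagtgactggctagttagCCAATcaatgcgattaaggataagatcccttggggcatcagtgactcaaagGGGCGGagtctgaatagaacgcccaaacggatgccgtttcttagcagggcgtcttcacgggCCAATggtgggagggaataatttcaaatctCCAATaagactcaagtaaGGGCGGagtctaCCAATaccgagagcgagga
Hnrnpd, chr5:99978939-99979188, minus strand: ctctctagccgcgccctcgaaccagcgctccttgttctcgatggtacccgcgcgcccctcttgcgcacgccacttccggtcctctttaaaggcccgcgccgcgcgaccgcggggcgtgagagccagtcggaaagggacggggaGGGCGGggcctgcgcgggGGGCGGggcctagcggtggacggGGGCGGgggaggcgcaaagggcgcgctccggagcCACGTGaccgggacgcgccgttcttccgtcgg
Hnrnpm, chr17:33685459-33685708, minus strand: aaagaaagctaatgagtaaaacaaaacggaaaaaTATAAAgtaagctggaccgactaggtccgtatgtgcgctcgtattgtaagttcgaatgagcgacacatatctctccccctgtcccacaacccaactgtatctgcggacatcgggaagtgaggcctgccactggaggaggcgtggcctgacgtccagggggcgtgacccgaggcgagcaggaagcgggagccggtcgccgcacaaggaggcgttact

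No motif of this set was present in all 3 windows, and the GC box was present in those of Hnrnpa1 and Hnrnpd. The Hnrnpa1 window held 4 matches to the CCAAT box and 2 to the GC box. That of Hnrnpd held 3 matches to the GC box and 1 to the E-box. That of Hnrnpm held 1 match to TATAAA, near the end of the window farthest from the gene's start. Promoter windows were available for all 10 members, 18 windows in all because Hnrnpa2b1, Hnrnpf and Hnrnph1 have several starts. The CCAAT box was present in 11 of the 18 windows (7 of 10 members), against 33.8% of the 32851 promoter windows of the same length. The GC box was present in 11 of 18 (6 of 10 members), against 32.7%. The TATA box was present in 1 of 18 (12.4% of all windows), the E-box in 3 of 18 (6.02%) and the cyclic AMP response element in 0 of 18 (1.55%). Some windows of 1 gene overlap (those of Hnrnpa2b1 and some of Hnrnph1), so not all are independent, and a match of letters does not show that a factor binds.

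Hnrnpa1 was the member that rose with fasting on both diets. In CD fed livers it stood at 51.9, 49.0, 43.5 and 41 CPM, and in CD fast livers at 77.3, 82.1, 58.2 and 67.5 CPM. In HFD fed livers it stood at 42.0, 44.8, 37.3 and 45.04 CPM, and in HFD fast livers at 58.03, 52.5, 54.6 and 62.8 CPM. All 8 fasted libraries lay above all 8 fed libraries, a separation shown by 3.66% of the genes tested. The rise was 0.62 ± 0.11 in CD (log2 fold change ± SE, adjusted p = 0.000855) and 0.43 ± 0.11 in HFD (adjusted p = 0.0230). Averaged over the diets it was 0.53 ± 0.08 (adjusted p = 0.000157). The log2 fold change in HFD stayed between 0.37 and 0.46 in all 16 fits without 1 library, but its adjusted p rose above 0.05 on leaving out replicate 1 (0.0673) or replicate 3 (0.0712) of HFD fed, or replicate 1 (0.0569) or replicate 4 (0.0585) of HFD fast. Gm10052, the pseudogene that shares most sequence with Hnrnpa1, had a log2 fold change of 0.32 ± 0.27 with fasting in CD (adjusted p = 0.413).

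The response of Hnrnpa1 to fasting was not shown to differ between diets. It was smaller in HFD by 0.19 on the log2 scale, with a 95% interval of the difference from -0.51 to 0.13 (adjusted p = 0.511). In fasted mice Hnrnpa1 was 0.32 ± 0.11 lower in HFD than in CD, with HFD fast libraries of 52.5 to 62.8 CPM against 58.2 to 82.1 CPM, which overlap. This difference missed the threshold (adjusted p = 0.0763), except without CD fast replicate 3 (0.0306) and in DESeq2 (0.0413). In fed mice the difference between diets was -0.13 ± 0.11 (adjusted p = 0.507). Averaged over feeding states it was -0.23 ± 0.08 (adjusted p = 0.0626). This average was called lower in DESeq2, with the replicate number as a block, and without CD fed replicate 4 or CD fast replicate 3.

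Hnrnpd showed another pattern, in which 1 of the 4 groups stood apart. In CD fed livers it was at 24.8, 25.1, 25.1 and 23.8 CPM. The other groups had 37.7, 39.1, 37.9 and 35.4 CPM (CD fast), 32.8, 36.3, 34.6 and 31.4 CPM (HFD fed) and 38.0, 32.5, 34.3 and 33.7 CPM (HFD fast). Thus the 4 CD fed libraries, with a highest value of 25.1 CPM, lay below each of the other 12, whose lowest value was 31.4 CPM. CD fed stood apart from the other 3 groups in this way, above or below, for 4.72% of the genes tested, and any 1 of the 4 groups did for 11.2%. Fasting raised Hnrnpd by 0.60 ± 0.06 in CD (adjusted p = 1.95e-05). HFD raised it by 0.45 ± 0.06 in fed mice (adjusted p = 0.000881).

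On HFD, fasting gave no detectable further rise of Hnrnpd. The log2 fold change was 0.04 ± 0.06, with a 95% interval from -0.10 to 0.17 (adjusted p = 0.752). In fasted mice the difference between the diets was -0.12 ± 0.06, with an interval from -0.25 to 0.02 (adjusted p = 0.269). The test of the difference itself, the diet by fasting interaction, gave -0.57 ± 0.09 (95% interval -0.76 to -0.38, adjusted p = 0.00838). Among the genes tested 2.59% had an interaction at this threshold, and among the members Hnrnpd was 1 of 10. The interaction kept its sign and stayed under the threshold in all 16 fits without 1 library, where it ranged from -0.62 to -0.53 with a highest adjusted p of 0.0216. Averaged over feeding states, HFD raised Hnrnpd by 0.17 ± 0.05 (adjusted p = 0.0256). That average rests on the fed mice, and it missed the threshold without replicate 2 (0.0516) or replicate 3 (0.0519) of HFD fed, without HFD fast replicate 1 (0.0518), and with no filter on low counts (0.0848).

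**Figure D2:**
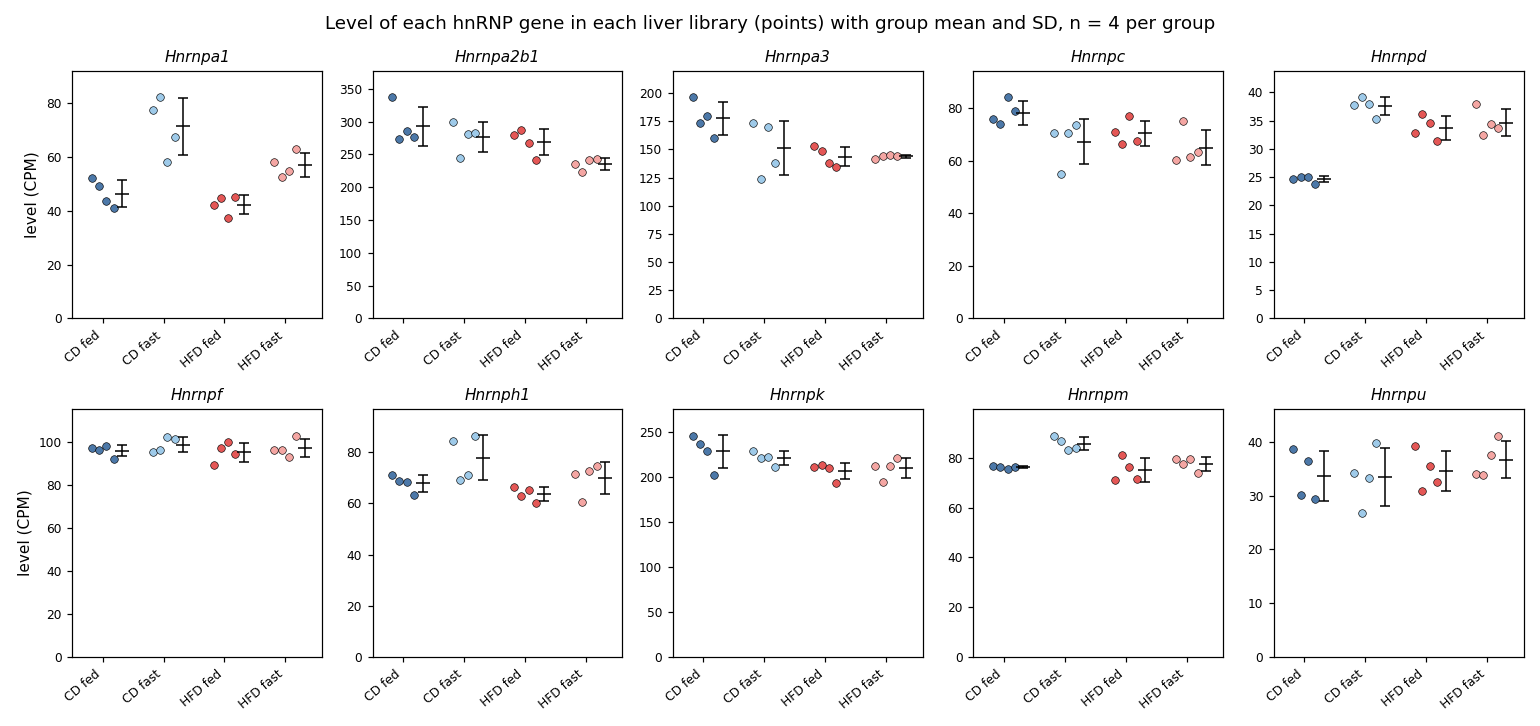
Level of the 10 hnRNP genes in each of the 16 libraries (points, CPM on a linear axis from 0), with the mean and 1 SD of the 4 libraries of a group to the right of the points. Hnrnpd is at 23.8 to 25.1 CPM in CD fed and at 31.4 CPM or more elsewhere, whereas Hnrnpa1 is higher in both fasted groups and Hnrnpf keeps between 89.5 and 103 CPM.

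Hnrnpm rose by the smallest amount of the 3 genes called. Its CD fed libraries were close together at 77.1, 76.4, 75.8 and 76.4 CPM, and its CD fast libraries were at 89.1, 87.1, 83.2 and 84.2 CPM. These groups did not overlap, as was the case for 25.4% of genes in this comparison. HFD fed libraries had 71.2, 81.5, 76.6 and 71.7 CPM and HFD fast libraries 79.6, 77.5, 79.8 and 73.9 CPM, which overlap each other. The rise with fasting in CD was 0.17 ± 0.06 (adjusted p = 0.0383). It missed the threshold in 9 of the 16 fits without 1 library, with a highest adjusted p of 0.0884 without CD fast replicate 1, in a fit of only the groups compared (0.0851), under scaling by total counts (0.127) and with no filter on low counts (0.18). March2, which shares exons with Hnrnpm on the same strand, had a log2 fold change of 0.25 ± 0.09 in this comparison (adjusted p = 0.0585), and its part in the counts of Hnrnpm was not tested. With fasting in HFD Hnrnpm had a value of 0.05 ± 0.06 (adjusted p = 0.647), and the difference between diets was not shown (interaction adjusted p = 0.406). In fasted mice Hnrnpm had a log2 fold change of -0.14 ± 0.06 with HFD (adjusted p = 0.119 by edgeR), and DESeq2 called it lower (0.0356).

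The close relatives of Hnrnpa1 were not called with fasting on either diet. Hnrnpa2b1 and Hnrnpa3 belong to the same A/B group, with paired RNA-recognition motifs and a glycine-rich tail, and hnRNP A2/B1 also directs the transport of RNA and the sorting of small RNAs. With fasting in CD, Hnrnpa2b1 had a log2 fold change of -0.08 ± 0.09 (adjusted p = 0.527) and Hnrnpa3 of -0.23 ± 0.10 (adjusted p = 0.0992), though Hnrnpa3 was called lower without CD fast replicate 1 (0.0438). With fasting in HFD the values were -0.19 ± 0.09 (adjusted p = 0.183) and 0.00 ± 0.10 (adjusted p = 0.991; 95% interval -0.21 to 0.21). Ratios within a library do not depend on its scaling. The count of Hnrnpa1 relative to Hnrnpa2b1 was 0.159 ± 0.0141 in fed and 0.260 ± 0.0547 in fasted mice on CD (SD, n = 4). On HFD it was 0.158 ± 0.0201 in fed and 0.242 ± 0.0140 in fasted mice. The highest ratio of a fed library was 0.187 and the lowest of a fasted library 0.207, so the 8 fed and the 8 fasted libraries did not overlap. Relative to Hnrnpa3, the count of Hnrnpa1 was 0.261 ± 0.0172, 0.485 ± 0.133, 0.295 ± 0.0302 and 0.396 ± 0.0322 in CD fed, CD fast, HFD fed and HFD fast livers, again without overlap between fed (at most 0.335) and fasted libraries (at least 0.342). The ratio of Hnrnpa2b1 to Hnrnpa3 had group means between 1.64 and 1.87. Its HFD fed libraries (1.796 to 1.936) lay above those of HFD fast (1.542 to 1.683) and of CD fed (1.575 to 1.725). The CD fast libraries (1.655 to 2.05) overlapped each of the other groups. No test was made on these ratios, and the share of all gene pairs whose ratios separate groups in this way was not computed. The level of Hnrnpa1 alone already separated the 8 fed from the 8 fasted libraries, so its ratios are not separate evidence.

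**Figure D3:**
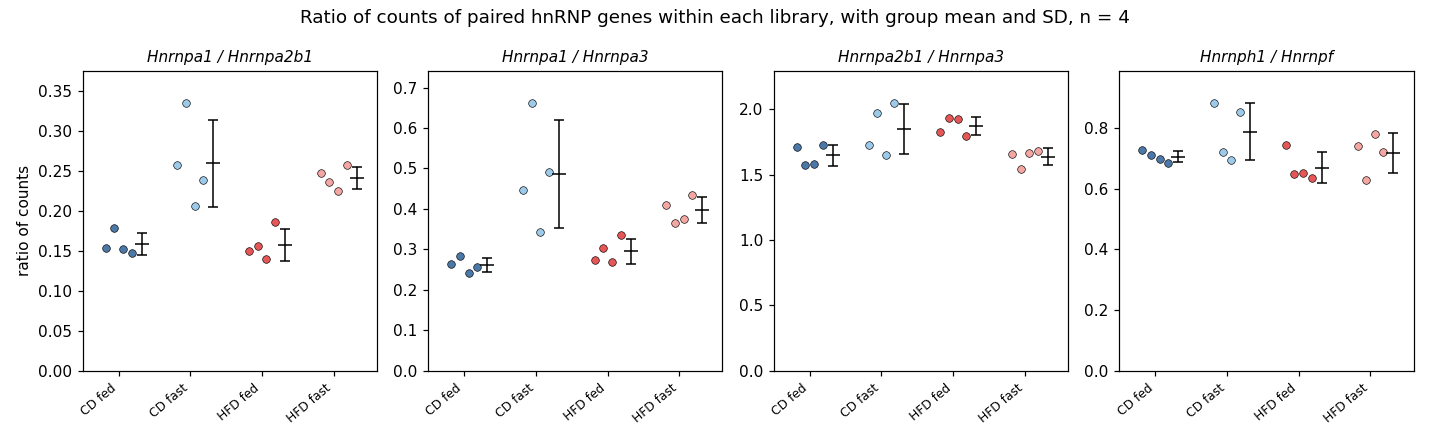
Ratio of the counts of paired hnRNP genes in each library (points), with the mean and 1 SD of the 4 libraries of a group; the vertical axes are linear and start at 0. Hnrnpa1 relative to Hnrnpa2b1 is at most 0.187 in fed and at least 0.207 in fasted libraries, and relative to Hnrnpa3 at most 0.335 and at least 0.342; for the other 2 ratios the 8 fed and the 8 fasted libraries overlap.

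Hnrnpa2b1 and Hnrnpa3 had their lowest group means on HFD, without passing edgeR's test on all 16 libraries. Hnrnpa2b1 had 336.9, 272.9, 284.9 and 276.8 CPM in fed mice on CD, and 299.3, 244.5, 281.5 and 281.8 CPM in fasted mice. On HFD it had 279.8, 286.9, 266.6 and 241.6 CPM in fed mice, against 234.6, 222.5, 241.8 and 243.0 CPM after the fast. The highest HFD fast library (243.0) lay below the lowest CD fast library (244.5), by a margin smaller than the spread within either group. The difference in fasted mice was -0.23 ± 0.09 (adjusted p = 0.108), where 14% of genes had groups that did not overlap. DESeq2 called Hnrnpa2b1 lower in HFD both in fasted mice (0.0449) and averaged over feeding states (0.0243). Hnrnpa3 had 160.5 to 196.2 CPM in CD fed and 134.5 to 153.3 CPM in HFD fed livers, which did not overlap, and a difference of -0.31 ± 0.10 (adjusted p = 0.0711), where 15.7% of genes did not overlap. It was called lower in DESeq2 (0.0319) and without CD fast replicate 2 (0.0367). Averaged over feeding states, edgeR gave -0.18 ± 0.06 for Hnrnpa2b1 (adjusted p = 0.0711) and -0.19 ± 0.07 for Hnrnpa3 (adjusted p = 0.0901). Without CD fast replicate 2 it called both lower in this average (0.0386 and 0.028). CD fast replicate 2 had the lowest level of Hnrnpa2b1 and of Hnrnpa3 among the CD fast libraries (123.9 CPM for Hnrnpa3, against 137.5 to 173.1 CPM in the others).

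Hnrnpc encodes the protein that binds uridine tracts and measures the length of nascent RNA. Its values were 76.0, 73.8, 84.2 and 79.0 CPM in CD fed and 70.4, 54.8, 70.4 and 73.7 CPM in CD fast livers. The groups did not overlap, with the fasted libraries lower, as was the case in either direction for 25.4% of genes in this comparison. The lowest fed library (73.8) lay just above the highest fasted library (73.7). The difference of -0.22 ± 0.09 missed the threshold (adjusted p = 0.106). In HFD it was -0.12 ± 0.09 (adjusted p = 0.467), with 66.3 to 76.9 CPM fed and 60.4 to 75.0 CPM fasted. Hnrnpc was called lower with fasting in CD only under scaling by total counts (0.0469). Averaged over the diets the difference was -0.17 ± 0.07 (adjusted p = 0.0744), which was called without CD fast replicate 4 (0.0485) and without HFD fast replicate 2 (0.0235).

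Hnrnpf and Hnrnph1 belong to the F/H group, which binds runs of guanine near splice sites. Hnrnpf was the steadiest member, with 89.5 to 103 CPM over all 16 libraries, a 1.15-fold range. Its SD within groups, 0.06 on the log2 scale, was smaller than that of all but 0.557% of the genes tested. Its log2 fold changes lay between -0.02 and 0.04 in the 4 comparisons between groups, and its 95% interval for fasting in CD ran from -0.08 to 0.16. On CD, Hnrnph1 had 71.0, 68.6, 68.4 and 63.2 CPM in fed mice, and 84.3, 69.3, 71.3 and 86.6 CPM in fasted mice. On HFD, the fed mice had 66.6, 62.9, 65.2 and 60.02 CPM, and the fasted mice 71.6, 60.6, 72.8 and 74.5 CPM. Fed and fasted libraries overlapped on both diets, and the fasting values were 0.20 ± 0.08 in CD (adjusted p = 0.0948) and 0.13 ± 0.08 in HFD (adjusted p = 0.339). Averaged over the diets, Hnrnph1 rose by 0.17 ± 0.06 (adjusted p = 0.0469). This call was lost in 13 of 16 fits without 1 library (up to 0.124 without CD fast replicate 4) in limma-voom (0.0551), under scaling by total counts (0.0676) and with no filter on low counts (0.112). The ratio of Hnrnph1 to Hnrnpf had group means of 0.669 to 0.787, with ranges that overlapped.

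No comparison called Hnrnpk or Hnrnpu. Hnrnpk encodes a protein with KH domains that binds cytidine-rich RNA and DNA, and Hnrnpu encodes a large scaffold protein that ties chromatin to nuclear RNA. Hnrnpk ranged from 193.3 to 245.7 CPM, and its largest difference was -0.14 ± 0.07 with HFD in fed mice (adjusted p = 0.247). Hnrnpu ranged from 26.7 to 41.2 CPM and had the largest SD within groups of the 10 members, 0.18 on the log2 scale. Its 95% interval for fasting in CD ran from -0.27 to 0.25. Hnrnpu overlaps Cox20 on the opposite strand, which had 690.8 counts on average.

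**Figure D4:**
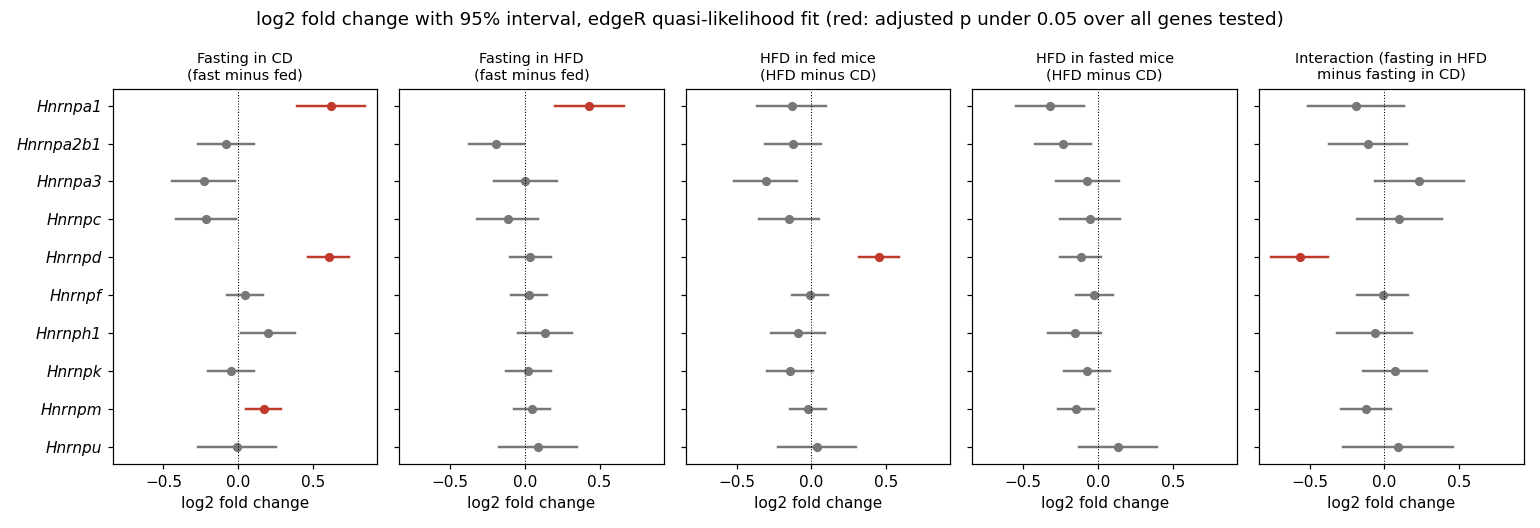
log2 fold change of the 10 hnRNP genes in 4 comparisons and in the diet by fasting interaction (horizontal axes), with 95% intervals from edgeR's quasi-likelihood fit; red marks an adjusted p under 0.05 over the 15075 genes tested. Hnrnpa1, Hnrnpd and Hnrnpm are called with fasting in CD, Hnrnpa1 with fasting in HFD, and Hnrnpd with HFD in fed mice and in the interaction.

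In the other comparisons the number of members called by edgeR lay close to the background. Fasting in HFD called 1 member (Hnrnpa1) of 10 where 8.86% of genes were called. HFD in fed mice called 1 (Hnrnpd) where 7.5% were called. HFD in fasted mice called 0 of 10 by edgeR where 7.7% were called, with 3 of 10 at an unadjusted p under 0.05 (25.9% of all genes) and 0 called by limma-voom. DESeq2 called 3 members there, Hnrnpa1, Hnrnpa2b1 and Hnrnpm, each lower in HFD, where it called 13% of genes. The fasting average called 3 (Hnrnpa1, Hnrnpd and Hnrnph1) where 28.8% of genes were called, and the HFD average 1 (Hnrnpd) where 12% were. DESeq2 called 2 members with HFD in fed mice (11.7% of genes), 4 in the fasting average (31.4%) and 3 in the HFD average (16.1%). HFD values were negative for 8 of 10 members in fed mice and 9 of 10 in fasted mice, with medians of -0.11 and -0.09 against 0.01 over all genes in each. Hnrnpu was the exception in both, joined by Hnrnpd in fed mice. The signs depend on the scaling, because scaling by total counts moved the median of all genes in fasted mice from 0.01 to 0.17 and left 2 of 10 members negative there. Relative to the median of all genes, 8 of 10 members in fed mice and 9 of 10 in fasted mice were lower under either scaling. A change of scaling moves all genes by nearly the same amount, so these counts could hardly change and add no support.

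The summed level of the 10 members was 1122 ± 71.2 CPM in fed and 1121 ± 59.8 CPM in fasted mice on CD (SD, n = 4). On HFD it was 1034 ± 42.5 CPM in fed and 1027 ± 28.9 CPM in fasted mice. With library totals in place of TMM scaling, the sums were 1094, 1062, 1058 and 1088 CPM, so the order of the diets turned in fasted mice. As a share of all counts the sum was 0.109%, 0.106%, 0.106% and 0.109%. On either diet the fed and fasted means differed by less than the SD of a group. Differences between diets were larger than the SD of a group under TMM scaling. With library totals the difference in fasted mice was smaller than the SD of either group. In fed mice it was smaller than the SD of CD fed (76.3 CPM) but not than that of HFD fed (33.2 CPM). No test was made on the sum.

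Within groups, the members varied together to a modest degree. After each group's mean was removed, the median Pearson r of the 45 pairs was 0.19 over 16 libraries, and 35 pairs (77.8%) were positive. The corresponding share was 49.9% of all gene pairs and 54.6% of pairs of genes with a mean of at least 1000 counts over the libraries. The highest r was 0.76 for Hnrnpa2b1 and Hnrnpa3, followed by 0.74 for Hnrnph1 and Hnrnpu, 0.66 for Hnrnpa2b1 and Hnrnpu and 0.65 for Hnrnpd and Hnrnpm. The lowest was -0.66 for Hnrnpa1 and Hnrnpc. These values are descriptive, since all genes of a library share its depth, its scaling and its cell composition.

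**Figure D5:**
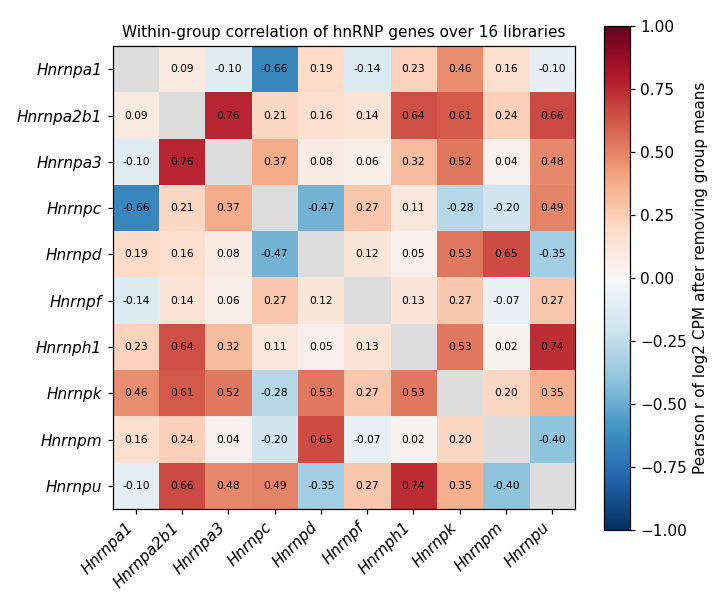
Pearson r between hnRNP genes of log2 CPM after removal of the group means, over 16 libraries, from -1 (blue) to 1 (red), with each value printed. Most of the 45 pairs are positive; Hnrnpa2b1 with Hnrnpa3 is highest at 0.76 and Hnrnpa1 with Hnrnpc lowest at -0.66.

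The genes whose levels followed the family most closely were identified by correlation with the mean standardised log2 CPM of the 10 members over the 16 libraries, among 10994 other genes with a mean of at least 100 counts. The highest were Mtif2 (r = 0.87), Rbbp7 (0.86) and Npm1 (0.85). Mtif2 encodes a mitochondrial translation initiation factor, Rbbp7 a histone-binding protein and Npm1 the nucleolar protein nucleophosmin. Of the members themselves, Hnrnph1 followed the mean of the other 9 most closely (r = 0.75) and Hnrnpk next (0.60), while Hnrnpd (-0.06) and Hnrnpc (-0.05) did not follow it.

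Beyond the 10 members, 16 further hnRNP genes and genes of historical hnRNP proteins were examined as a list. With fasting in CD, 1 of 16 passed the test where 25.2% of all genes did, and with fasting in HFD 2 of 16 where 8.86% did. With HFD 1 of 16 passed in fed mice (7.5% of all genes) and 1 in fasted mice (7.7%). Hnrnpll, a regulator of exon skipping related to Hnrnpl, fell by 0.29 in CD (adjusted p = 0.00965) and by 0.34 in HFD (adjusted p = 0.0101). Hnrnpr rose by 0.29 in HFD (adjusted p = 0.0499). HFD lowered Ptbp1, the polypyrimidine tract-binding protein, in fed mice (-0.25, adjusted p = 0.0497), and Raly in fasted mice (-0.23, adjusted p = 0.0320). Averaged over diets, fasting raised Hnrnph3, Hnrnpr and Rbmx and lowered Hnrnpll, 4 of 16 where 28.8% of all genes were called. Averaged over feeding states, HFD lowered Raly (-0.15, adjusted p = 0.0359), 1 of 16 where 12% were called. The median log2 fold change of the list was 0.03 with fasting in CD and 0.01 with fasting in HFD, and with HFD it was -0.03 in fed and -0.09 in fasted mice. None of the 16 had an interaction at an adjusted p under 0.05, nor at an unadjusted p under 0.05, where 20.2% of all genes did; no other tool was read for this list.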

How the data were processed

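Polyadenylated RNA of 16 livers was prepared with the NEBNext Ultra II kit and sequenced as paired ends. The authors aligned reads to GRCm38 with TopHat2 2.0.11 and counted genes with featureCounts, and the deposited values are raw counts per Ensembl gene. How the counting step treated strand and reads with several matches, and which annotation release it used, are not given in the sources used here, so overlapping genes and near-identical copies are uncertain. Libraries were grouped by their labels. Members were matched by symbol through GENCODE M21, where 45229 of 46078 genes had one. The members and gene lists were chosen with earlier results of these data known. In R 4.3.3, edgeR 4.0.16 was used with TMM scaling, a trimmed mean over genes. Genes passing filterByExpr (15075) were fitted with 1 coefficient per group, and quasi-likelihood tests were adjusted by the Benjamini-Hochberg method over all of them, with a threshold of 0.05. Intervals are 95%. Each p-value sets a difference against the spread between these livers within groups only, estimated over the 4 groups. Shared sequence was counted as words of 100 bases. All 10 members were named, of the 16 further hnRNP genes those called in a comparison, and of other genes the 3 most correlated with the family. A gene first listed with these 16 is not reported here. Alternatives were DESeq2 1.42.0, limma-voom (limma 3.58.1), other scalings and filters, the replicate number as a block, fits restricted to the compared groups and omission of each library. Procedures were tested on simulated data. Without molecular identifiers, depth limits describe counting error alone.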

Additional observations from a re-analysis of the deposited data

Results flagged for a closer look

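The fasting response of Hnrnpd differed between the diets by a direct test. It was -0.57 on the log2 scale in HFD relative to CD (edgeR's quasi-likelihood test, adjusted p = 0.00838), with a rise in all 4 CD fast libraries above all 4 CD fed libraries and overlap in HFD. With fasting in CD, 25.4% of genes tested had groups that did not overlap.

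Among 60 sets of 4 libraries examined (levels, sums and ratios of members by group), 2 held a library far from the others, and chance alone gives such a library in about 1 of 20 sets. Hnrnpk in HFD fed replicate 4 was at 193.3 CPM, below 209.5 to 212.6 CPM in the other 3 libraries. The log2 ratio of Hnrnph1 to Hnrnpf in HFD fed replicate 1 was -0.43, above the other 3 of that group, and the level of Hnrnpf in this library, 89.5 CPM, was the lowest of all 16.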

How the results depend on the processing

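Of 600 member values under settings other than leaving out a library, 555 kept their direction and their side of the threshold, 7 lost and 11 gained a call, and 27 changed sign. With each library left out in turn, 1055 of 1120 were unchanged in these respects, 29 lost and 11 gained a call, and 25 changed sign. The calls of Hnrnpa1 and Hnrnpd with fasting in CD, of Hnrnpd with HFD in fed mice and of the Hnrnpd interaction held in all of them. Causes of the changes were not tested.

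Scaling by total counts changed the most signs. It gave log2 values of 0.0598 (Hnrnpf) and 0.0483 (Hnrnpm) for HFD in fed mice, and of 0.0853 (Hnrnpa3), 0.106 (Hnrnpc), 0.0431 (Hnrnpd), 0.139 (Hnrnpf), 0.00627 (Hnrnph1), 0.0877 (Hnrnpk) and 0.0123 (Hnrnpm) for HFD in fasted mice. For the interaction it gave 0.0788 (Hnrnpf) and 0.0276 (Hnrnph1), and for the HFD average 0.0117 (Hnrnpc), 0.0992 (Hnrnpf), 0.00659 (Hnrnpk) and 0.0303 (Hnrnpm). Upper quartile scaling gave Hnrnpf 0.00976 for HFD in fed mice, 0.0173 in fasted mice, 0.00749 for the interaction and 0.0135 for the HFD average, and Hnrnpk 0.00429 for the fasting average. A minimum mean of 100 counts gave Hnrnpf 0.00108, 0.00508, 0.004 and 0.00308 in the same 4 comparisons. Hnrnpa3 with fasting in HFD was -0.00328 in DESeq2 and without a filter and -0.00329 with DESeq2 size factors. Total counts also moved the share of calls that were higher from 54.4% to 44.3% (fasting in CD), 54% to 67.6% (fasting in HFD), 43.8% to 68.8% (HFD in fed mice), 39.6% to 88.1% (HFD in fasted mice), 47.4% to 69.5% (interaction) and 41.5% to 84.7% (HFD average). They moved the median of all genes from 0.01 to 0.17 for HFD in fasted mice and to 0.13 for the HFD average. The summed level in HFD fast livers became 1088 CPM.

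DESeq2 called 2 members and 1768 genes with HFD in fed mice, 3 members and 1967 genes with HFD in fasted mice, 1020 genes in the interaction and 3 members in the HFD average. HFD in fasted mice gave 2101 genes under total counts and 90 in a fit of only the 2 groups compared, and the HFD average 3085 genes under total counts and 0 members without a filter. Hnrnpm with fasting in CD was also lost under total counts and without a filter, with a highest adjusted p of 0.180. The replicate block added Hnrnpa1 to the HFD average, giving 2 members, and changed no other member's call. Replicate numbers showed little sign of pairing the libraries, though this check cannot exclude it. The correlation of deviations between libraries of 1 number averaged -0.01 to 0.10, and for number 4 its pairs ran from -0.19 to 0.66. Of 16 libraries, 5 correlated best with their own number.

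With each library left out, the members called ranged from 0 to 1 (fasting in HFD), 1 to 2 (HFD in fed mice), 0 to 1 (HFD in fasted mice) and 0 to 3 (HFD average). All genes called ranged from 505 to 1533 (fasting in HFD), 514 to 1268 (HFD in fed mice), 535 to 1354 (HFD in fasted mice) and 147 to 461 (interaction). Signs changed only near 0. With fasting in CD Hnrnpu ranged from -0.108 to 0.0869. With fasting in HFD the ranges were -0.0275 to 0.0349 (Hnrnpa3), -4.27e-05 to 0.0537 (Hnrnpf), -0.00747 to 0.0444 (Hnrnpk) and -0.0112 to 0.0725 (Hnrnpd). With HFD in fed mice they were -0.0292 to 0.112 (Hnrnpu), -0.0352 to 0.0189 (Hnrnpf) and -0.0624 to 0.00347 (Hnrnpm). In the interaction they were -0.0428 to 0.0108 (Hnrnpf) and -0.00166 to 0.181 (Hnrnpu), and in the fasting average -0.0396 to 0.00609 (Hnrnpk) and -0.0171 to 0.0861 (Hnrnpu).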
